A study of Mus musculus with 31 samples.

Results

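Actin and actin-regulating genes were followed in 31 single cells of the mouse lung. The 10 genes were chosen by symbol: the cytoplasmic actins Actb and Actg1, the thymosins Tmsb4x and Tmsb10, and Pfn1, Arpc2, Cfl1, Coro1a, Lcp1 and Arhgdib. All 10 matched a row among the 47069 genes of both tables. The cells came from 10-week-old adult mice of the Csf1r-GFP genotype, in which a GFP reporter stands for expression of the receptor Csf1r, and were taken from the right lobes 7 days after a sham operation that opened the chest cavity. They were sorted as CD45+, CSF1R-GFP+ and F4/80+ cells and are labelled as macrophages. The label also names Ly6G, the neutrophil antigen, with no sign. All cells belong to this 1 group, the labels name no animal or batch, and no operated or unoperated comparison group was analysed here.

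The cells were described in sets made from 2 measured properties. A set of 20 cells had Lyz2, the lysozyme gene of myeloid cells, at FPKM 1000 or more, and these Lyz2-high cells had 87.4 to 95.6% of their counts on nuclear protein-coding genes. A set of 10 libraries had 32.7 to 61.4% of their counts on such genes and is called low-coding. The remaining cell, F11, had 87.9% of its counts on coding genes and no Lyz2. Total expected counts were 521492 to 4059833 in the Lyz2-high cells, with a median of 1591648, and 120835 to 1592301 in the low-coding libraries, with a median of 373305. Cell C7 lay just inside the Lyz2 minimum at 1228.8 FPKM, and the low-coding library D10 lay just outside it at 552.8 FPKM. Of 9 pan-myeloid marker genes besides Lyz2, which made the set, 4 were present in every Lyz2-high cell and all 9 in at least 50% of them. The summed FPKM of these 9 markers was 7886.0 to 27327.2 in the Lyz2-high cells and 1.14 to 3851.6 in the low-coding libraries. Not every cell carried each sort gene, since Adgre1, which encodes F4/80, was present in 15 of 20 Lyz2-high cells and 1 of 10 low-coding libraries. Of 10 alveolar macrophage markers, 7 were in no Lyz2-high cell, and their summed FPKM reached at most 1025.6 in the Lyz2-high cells and 45.4 in the low-coding libraries. Endothelial markers summed to a median of 0.485 FPKM in the Lyz2-high cells and 46.6 FPKM in the low-coding libraries, and their sums reached 730.2 FPKM in the Lyz2-high cells and 400.4 FPKM in the low-coding libraries. Lymphocyte markers summed to 0 to 152.1 FPKM in the Lyz2-high cells and 3.69 to 653.0 FPKM in the low-coding libraries. Neutrophil markers summed to 0 to 1767.7 FPKM in the Lyz2-high cells and 14.8 to 365.4 FPKM in the low-coding libraries. Of these 10 markers, 5 were in no Lyz2-high cell. Ly6g, the gene of the Ly6G named in the label, was in 7 of 20 Lyz2-high cells, at up to 115.4 FPKM, and 0 of 10 low-coding libraries.

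Actin exists as single molecules and as filaments, and a motile phagocyte keeps a large store of unpolymerised actin from which it builds protrusions and phagocytic cups. Beta-thymosins hold actin monomers in reserve, profilin hands them to growing ends, the Arp2/3 complex starts branches, and cofilin and coronin take filaments apart. Plastins bundle filaments into stiffer rods.

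The coding sequences of the 2 thymosin genes are shown because Tmsb4x and Tmsb10 had very different levels in these cells, and the letters tell where reads of one differ from those of the other. They are printed 5′ to 3′ from the GENCODE transcripts on GRCm38, with capitals at the positions where the 2 differ. Tmsb4x lies at chrX:167207093-167209315 on the minus strand, and Tmsb10 at chr6:72957347-72958748 on the minus strand.
Tmsb4x: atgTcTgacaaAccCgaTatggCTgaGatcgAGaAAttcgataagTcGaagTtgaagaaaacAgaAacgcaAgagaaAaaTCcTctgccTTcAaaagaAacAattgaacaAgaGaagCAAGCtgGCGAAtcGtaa
Tmsb10: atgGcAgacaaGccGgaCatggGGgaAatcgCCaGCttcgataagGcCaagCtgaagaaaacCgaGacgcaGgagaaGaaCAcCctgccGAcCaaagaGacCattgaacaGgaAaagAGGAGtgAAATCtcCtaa
Both coding sequences have 135 bases, of which 40 differ, so that 70.4% are identical. The longest identical run is 10 bases, and the 2 genes share no stretch of 50 bases. A read that covers 50 bases of either coding sequence therefore carries differences from the other. Actb and Actg1, whose products are nearly the same protein, are closer to each other. Their coding sequences of 1128 bases each differ at 128 positions, are 88.7% identical and share a longest identical run of 62 bases.

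The members also differ in how much sequence they share with other annotated genes, which bears on counts that RSEM has to divide. In 50-base windows over all transcripts of a gene, Actg1 had 37.4% of its windows in common with another gene, with 23 partners, and the pseudogene Gm12715 alone held 33.2% of the windows. The share was 27.02% for Tmsb10, mainly with Gm9844, 18.3% for Cfl1, mainly with Snx32, 9.12% for Actb, 8.17% for Lcp1 and 2.47% for Arhgdib. It was 0.145% for Arpc2, and Tmsb4x, Pfn1 and Coro1a shared none. RSEM assigned few or no reads to the main partners of Actg1, Cfl1 and Tmsb10 in the Lyz2-high cells. Gm12715 and Snx32 were listed at 0 in all 20, and Gm9844 had a median of 39.5 FPKM, against 3672.2 FPKM for Tmsb10. Gm9844 was present in 16 of 20 cells and reached 245.2 FPKM, while the lowest Tmsb10 level where present was 161.4 FPKM. These values come after the division of shared reads, so they cannot show how many shared reads went to a member.

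The actin genes are known targets of serum response factor, whose binding motif, the CArG box, reads the same on both strands. RefSeq promoter windows, each reaching from 250 bases before to 50 bases after a start on GRCm38.p6, were matched for 9 of the 10 members, all but Actb. Among the 15 windows of these 9 members, 1 held a CArG box, that of Actg1, and 535 of the 32851 windows searched, or 1.63%, held one, with 1 chromosome left out of the search. A stretch of 73 bases upstream of Actg1, at chr11:120348543-120348615 on the minus strand and outside the gene as GENCODE draws it, is shown 5′ to 3′ because it holds that box, in capitals.
Actg1: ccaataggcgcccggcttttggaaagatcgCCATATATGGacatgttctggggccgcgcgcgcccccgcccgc
The box starts 90 bases before the RefSeq start. It is a match of letters and says nothing about binding in these cells. Srf itself was present in 1 of 20 Lyz2-high cells and 1 of 10 low-coding libraries. Its coactivator genes Mrtfa and Mrtfb were in 3 and 1 of the 20 Lyz2-high cells and in 3 and 10 of the 10 low-coding libraries, and the level of Mrtfb reached 1.09 FPKM in the Lyz2-high cells.

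The 10 genes were widely detected in the Lyz2-high cells. Of the 10 members, 6 were present at FPKM 1 or more in every one of the 20 cells: Actb, Actg1, Tmsb4x, Pfn1, Cfl1 and Arhgdib. Of the 10818 genes present in at least 1 Lyz2-high cell, 143, or 1.32%, were present in all 20. At FPKM 100 or more in every cell, 4 members remained, Actb, Tmsb4x, Pfn1 and Cfl1, beside 0.666% of the 10818 genes. A presence in 20 of 20 cells has an interval of 83.2 to 100% for the share of such cells. Arpc2 was present in 19 cells, Tmsb10 and Lcp1 in 18 each and Coro1a in 16, an interval of 56.3 to 94.3%. Together, 9 members were in at least 90% of the cells, as were 2.9% of the 10818 genes, and all 10 were in at least 50%, as were 13.2%. All 10 members were present in 12 cells, 7 cells lacked 1 member, and cell C6 lacked 2, Tmsb10 and Coro1a. The median Lyz2-high cell held all 10. The genes were chosen with these data known, so these counts describe the list and do not set it apart from others.

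**Figure D1:**
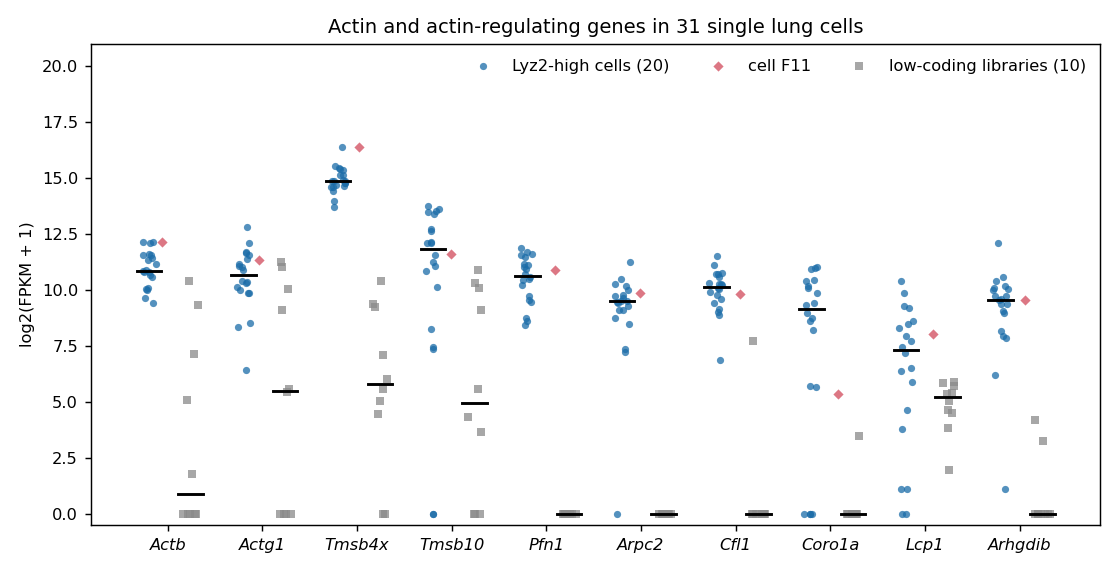
Level of the 10 genes, as log2(FPKM + 1), in the 20 Lyz2-high cells (circles, left), cell F11 (diamond) and the 10 low-coding libraries (squares, right), with 1 point per cell and a bar at the median. The median of Tmsb4x lies above that of every other member in the Lyz2-high cells, and Pfn1 and Arpc2 lie at 0 in all 10 low-coding libraries.

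Both cytoplasmic actins were present in all 20 Lyz2-high cells at medians close to each other. Actb had a lowest, median and highest level of 686.2, 1864.9 and 4582.5 FPKM over the Lyz2-high cells, and 0, 1.20 and 1334.1 FPKM over the low-coding libraries. Actg1 had 85.6, 1634.2 and 7229.4 FPKM over the Lyz2-high cells, and 0, 44.3 and 2409.9 FPKM over the low-coding libraries. Actb thus spanned 6.68-fold among the Lyz2-high cells and Actg1 84.5-fold, and the ranges of the sets overlapped for both genes. The lowest Actg1 value was that of cell D4, and without it the next lowest was 323.1 FPKM in C8. In low-coding libraries Actb was present in 5 and Actg1 in 6 of 10. The balance between the 2 genes varied from cell to cell. Actg1 made up a median of 46.2% of the FPKM of both, from 9.67% in cell D4 to 65.1% in cell B9, and it exceeded Actb in 8 of 20 cells. The muscle actins of the same family were not detected with them: Acta1, Acta2, Actc1 and Actg2 were in none of the 20 cells, and 0 of 20 has an interval that reaches 16.8% of cells. In the low-coding libraries Acta2 was in 1 and Actc1 in 2 of 10.

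Tmsb4x, which sequesters actin monomers, had the highest median level of all 47069 genes in the Lyz2-high cells. Its lowest, median and highest levels were 13284.9, 29763.5 and 85070.8 FPKM in the Lyz2-high cells, and 0, 54.7 and 1338.6 FPKM in the low-coding libraries. The lowest Lyz2-high cell lay above every low-coding library, although Tmsb4x was present in 8 of the 10. How many of all genes had such a gap was not computed. Its mean was 33426.6 ± 15193.2 FPKM in the Lyz2-high cells and 290.1 ± 444.4 FPKM in the low-coding libraries (SD over 20 and 10 cells). Tmsb4x was the highest gene of the cell in 3 Lyz2-high cells, ranked no lower than 9 in any, and exceeded Lyz2 in 12 of 20. It took a median of 1.75% of all expected counts in the Lyz2-high cells, from 0.785 to 4.96%. The coefficient of variation, the SD over the mean, was 0.455 for Tmsb4x. It ranked 10 from the lowest among the 143 genes present in every Lyz2-high cell, where Actb ranked 29, Cfl1 34, Pfn1 53, Actg1 110 and Arhgdib 130.

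Tmsb10, the second beta-thymosin, was lower and far more uneven. It had 0, 3672.2 and 13706.6 FPKM as its lowest, median and highest levels in the Lyz2-high cells, and 0, 32.7 and 1897.5 FPKM in the low-coding libraries. It was at 0 in the Lyz2-high cells H8 and C6, which had 24842.1 and 24772.7 FPKM of Tmsb4x. Where Tmsb10 was present, its lowest level was 161.4 FPKM, so the range over the 18 cells was 84.9-fold, against 6.40-fold for Tmsb4x over 20. Tmsb10 made up a median of 9.33% of the FPKM of both thymosins, from 0 to 32.4%, and exceeded Tmsb4x in none of the 20 cells. Over the 20 cells the rank correlation of the 2 genes was -0.04, and it was -0.31 with FPKM scaled to equal totals and 0.49 over all 31 cells.

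**Figure D2:**
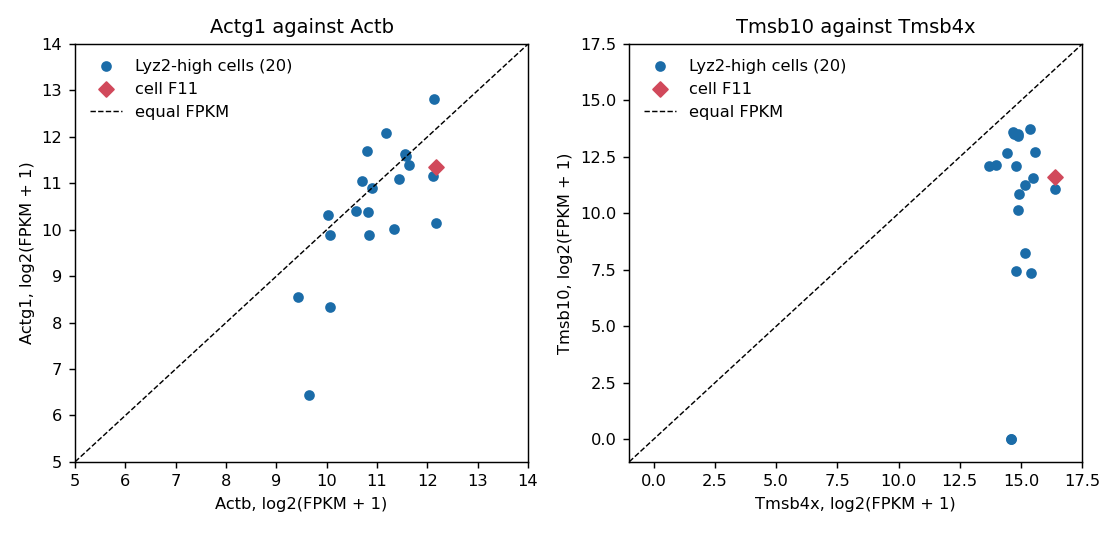
Actg1 against Actb (left) and Tmsb10 against Tmsb4x (right), as log2(FPKM + 1), in the 20 Lyz2-high cells (circles) and cell F11 (diamond), with a dashed line at equal FPKM. Actins fall on both sides of the line, with Actg1 above Actb in 8 of 20 cells, while every cell lies under the line for the thymosins and 2 of them lie at 0 for Tmsb10.

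Profilin and the Arp2/3 subunit Arpc2, which act where filaments grow, were missing from the low-coding libraries. Pfn1 had 341.0, 1601.3 and 3719.3 FPKM as its lowest, median and highest levels in the Lyz2-high cells and was at 0 in all 10 low-coding libraries, which gives an interval of 0 to 30.9% for its share there. Arpc2 had 0, 721.3 and 2432.1 FPKM in the Lyz2-high cells, where cell G8 alone lacked it, and was also at 0 in all 10 low-coding libraries. The levels of Pfn1 did not overlap between the sets, and those of Arpc2 met at 0 through G8. Other genes of the actin system were also at 0 in all 10, such as Tagln2, Myl12b and Brk1, while Lsp1 was in 4. The share of all genes without overlap between the sets was not computed. Thinned at random to 120829 reads each, the smallest library's total once each gene's count is rounded, the Lyz2-high cells kept Pfn1 in 20 and Arpc2 in 19 of 20. At that total Pfn1 had 32 to 292 reads per Lyz2-high cell, and Arpc2 had 0 to 385. Thinning matched total counts and not counts on coding genes, so it does not equalise the depth at which these genes were read. The sum of the 9 pan-myeloid markers other than Lyz2, given above, was lower in the same libraries, and the sets differ by their making in Lyz2 and in the share of counts on coding genes. The part of these, and of depth on coding genes, in the difference was not tested.

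Among the genes that dismantle or bind filaments, cofilin was present throughout and coronin 1A was not. Cfl1 had 117.0, 1134.4 and 2901.2 FPKM as its lowest, median and highest levels in the Lyz2-high cells and was present in 1 of 10 low-coding libraries, at 208.6 FPKM, a value above the lowest Lyz2-high cell. Coro1a, the coronin of leukocytes, had 0, 571.0 and 2098.6 FPKM in the Lyz2-high cells and was present in 1 of 10 low-coding libraries, at 10.1 FPKM. Coro1a was at 0 in the Lyz2-high cells B4, H5, F10 and C6 and near 50 FPKM in D6 and F1, so the values split into a low and a high run with 297.4 FPKM in C11 as the next level. The Lyz2-high cells without Coro1a had totals of 767318 (B4), 1053377 (C6), 1837295 (F10) and 4059833 (H5) expected counts. The median over the Lyz2-high cells was 1591648. The part of depth in these zeros was not tested.

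Lcp1, the plastin of blood cells, and Arhgdib, a GDP-dissociation inhibitor of blood cells, had the widest ranges. Lcp1 had 0, 159.9 and 1373.8 FPKM as its lowest, median and highest levels in the Lyz2-high cells, and 2.89, 36.1 and 57.9 FPKM in the low-coding libraries. Lcp1 was the 1 member found in every low-coding library, with a median of 38.6 expected counts there, against 618.5 in the Lyz2-high cells. Genes outside the members were also in all 10 low-coding libraries, such as Enah and Mrtfb, at medians of 11.7 and 13.5 FPKM. So were the markers Cxcr2 and Pecam1, named here after their values were seen, at 37.5 and 8.46 FPKM. The share of all genes found in all 10 was not computed. Lcp1 shares windows with 29 other genes, among them the non-coding gene Gm15628, and the part of shared reads in its low values was not tested. In the Lyz2-high cells E7 and A10 Lcp1 was at 0, and in B4 and C8 it was at 1.15 and 1.17 FPKM, from 3 and 2 counts. Arhgdib had 1.13, 762.5 and 4340.8 FPKM in the Lyz2-high cells and was present in 2 of 10 low-coding libraries, at 8.39 and 17.2 FPKM. Its lowest value was a single count in cell C11, so its presence in all 20 cells rests on 1 read there, and at FPKM 10 or more it was in 19.

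**Figure D3:**
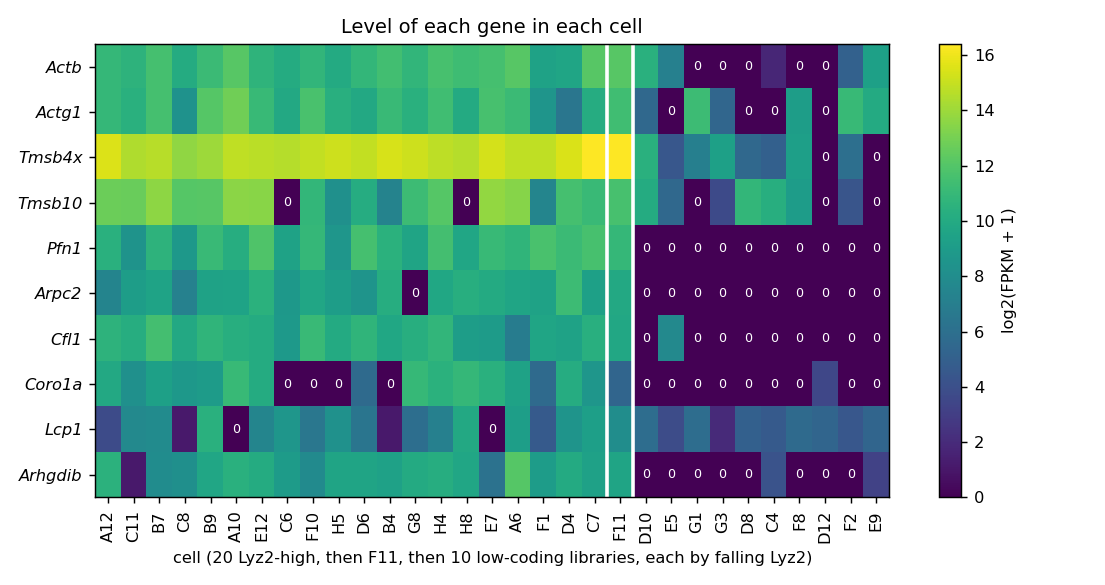
Level of each of the 10 genes, as log2(FPKM + 1) by colour, in each of the 31 cells, with a white 0 where no value was listed above 0. The 20 Lyz2-high cells stand left of cell F11 and the 10 low-coding libraries, each set by falling Lyz2, and Coro1a has the most zeros of any member in the Lyz2-high cells, 4.

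By their medians in the Lyz2-high cells, on the FPKM scale, the members ran Tmsb4x, Tmsb10, Actb, Actg1, Pfn1, Cfl1, Arhgdib, Arpc2, Coro1a and Lcp1. These medians ranked from 1 for Tmsb4x and 24 for Tmsb10 to 241 for Coro1a and 485 for Lcp1 among the 47069 genes. Tmsb4x was above Tmsb10 in 20 of 20 cells, with a median log2 difference of 3.36. In the other 8 neighbouring pairs the higher gene was above the lower in 11 to 14 of 20 cells, and the quartiles of the log2 difference lay on both sides of 0. For Actb over Actg1, for example, they were -0.14 and 0.95. Below Tmsb4x, neighbours in this order did not differ beyond the spread between cells.

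The 10 genes together took a median of 4.20% of the summed FPKM of a Lyz2-high cell, from 1.98% in C8 to 9.01% in C7, and 3.43% of its counts. In the low-coding libraries they took a median of 0.125% of the summed FPKM, from 0.00395 to 0.297%. The ranges did not overlap, and how often other lists of genes do the same was not computed. Tmsb4x supplied a median of 71.4% of the members' FPKM in the Lyz2-high cells, from 46.6 to 86.5%, so the share of the list is largely that of 1 gene.

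**Figure D4:**
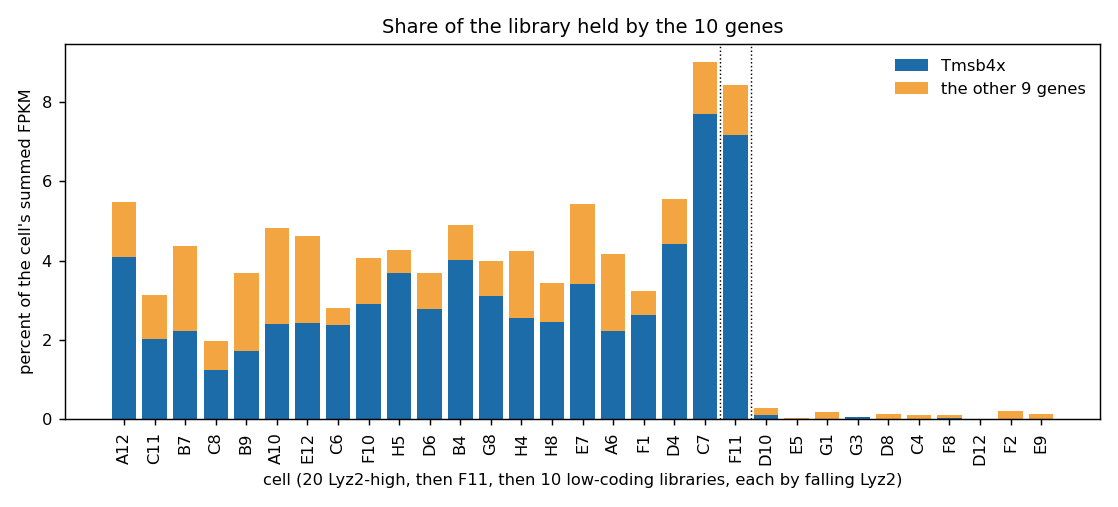
Percent of each cell's summed FPKM held by Tmsb4x (blue) and the other 9 genes (orange), with the 20 Lyz2-high cells left of cell F11 and the 10 low-coding libraries. The Lyz2-high cells lie between 1.98 and 9.01%, and no low-coding library exceeds 0.297%.

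Presence together was common, while levels moved together for few pairs. Of the 45 pairs of members, 15 were together in every Lyz2-high cell, and 33 were together in at least 90% of these cells. The pair found together least was Coro1a with Lcp1, in 14 of 20. Presence together follows from each gene's own presence: no cell lacked both Coro1a and Lcp1. Across the 20 cells the Spearman correlation of log2(FPKM + 1) had a median of 0.13 over the 45 pairs, and 10 pairs were below 0. Over the 1023165 pairs of the 1431 genes present in at least 50% of Lyz2-high cells, the median was 0.02. A rho of 0.4 or more was reached by 7 member pairs, or 15.6%, and by 5.53% of those pairs. The 1431 genes were not matched to the members for level or presence, and the part of these in the difference was not tested. The cells share 1 group and preparation and differ in depth, and rho with total counts was 0.05 for Actb, -0.01 for Actg1, 0.29 for Tmsb4x, -0.22 for Tmsb10, 0.11 for Coro1a and 0.33 for Arhgdib, the highest of the 10 members.

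The highest correlation was that of the 2 actins, at 0.62, and leaving out 1 cell at a time gave 0.56 to 0.74. Actg1 and Tmsb10 followed at 0.58, with 0.52 to 0.67 without 1 cell. Coro1a and Arhgdib had 0.53, with 0.48 to 0.67, and 0.44 when thinned to equal totals. Tmsb10 and Coro1a had 0.52, with 0.47 to 0.72. Pfn1 and Arpc2 had 0.44, with 0.36 to 0.56. Tmsb4x and Lcp1 had the lowest of the 45 on this scale, -0.24, with -0.39 to -0.14. That pair had -0.17 with FPKM scaled to equal totals, where Tmsb4x with Tmsb10 was lower at -0.31, and -0.50 in the 18 cells with Lyz2 at FPKM 5000 or more. Over all 31 cells the pair had 0.24 and Pfn1 with Arpc2 had 0.80, with the low-coding libraries low in most members. Over the 20 Lyz2-high cells, Pearson's r of the same log2 values was 0.72 for the actins and 0.28 for Actg1 with Tmsb10. It was 0.09 for Coro1a with Arhgdib and 0.47 for Tmsb10 with Coro1a. Pfn1 with Arpc2 had an r of 0.35, and Tmsb4x with Lcp1 had -0.04.

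**Figure D5:**
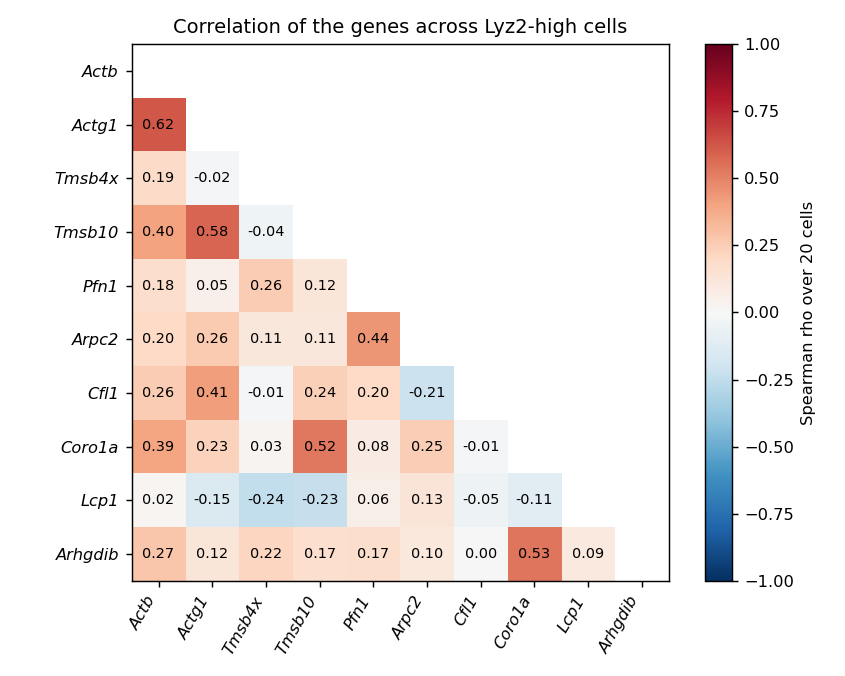
Spearman's rho of log2(FPKM + 1) over the 20 Lyz2-high cells for each of the 45 pairs of members, with red above 0 and blue below 0. The highest value is 0.62 for Actb and Actg1, and the lowest is -0.24 for Tmsb4x and Lcp1.

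Genes outside the list were ranked by their likeness to Actb over the 20 Lyz2-high cells. Among 1421 candidates, whose median rho was 0.04, those near the top were Gnb2, a G protein beta subunit, at 0.72, the predicted gene Gm11808 at 0.71, the ribosomal protein gene Rpl6 at 0.67 and the ribosomal protein gene Rps2 at 0.64. For the mean log2(FPKM + 1) of the 10 members they were Tnfaip3, an inhibitor of NF-kB signalling, at 0.68, the predicted gene Gm10053 at 0.68, the ribosomal protein gene Rpl7a at 0.66, S100a11, a calcium-binding protein gene, at 0.66, and Gch1, GTP cyclohydrolase 1, at 0.64. The median over candidates was 0.08 for that mean. These are the tops of a ranking of many genes over 20 cells, and Gm10053 and Gch1 were present in 10 of them.

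The members were also set against 2 markers of the cells, and Tmsb10 and Coro1a had the largest fold differences in median. In the 10 Lyz2-high cells with Ly6c2, the Ly6C antigen of classical monocytes, Tmsb10 had 2430.7, 8890.0 and 13706.6 FPKM as its lowest, median and highest levels, and in the 10 without it 0, 714.2 and 6434.7 FPKM. Coro1a had 434.4, 1011.0 and 2098.6 FPKM in the cells with Ly6c2, and 0, 50.5 and 1965.2 FPKM in those without. Both genes were present in all 10 cells with Ly6c2, while 2 cells without it lacked Tmsb10 and 4 lacked Coro1a, and the ranges overlapped. By C1qb, a complement gene of tissue macrophages, the order was the other way round. Tmsb10 had 0, 167.4 and 2182.1 FPKM in the 6 cells with C1qb, and 1124.1, 5483.8 and 13706.6 FPKM in the 14 without. Coro1a had 0, 25.3 and 1965.2 FPKM in the cells with C1qb, and 0, 810.7 and 2098.6 FPKM in those without. Actg1 had medians of 2477.0 FPKM with Ly6c2 and 1076.7 FPKM without it, and 1076.7 FPKM with C1qb and 2202.7 FPKM without it. Lcp1 went the other way, with medians of 100.8 FPKM with Ly6c2 and 260.5 FPKM without it, and 353.0 FPKM with C1qb and 117.1 FPKM without it. The medians of Actb were 2666.9 FPKM with Ly6c2 and 1657.6 FPKM without it, and 1831.2 FPKM with C1qb and 1864.9 FPKM without it. Those of Tmsb4x were 29099.5 FPKM with Ly6c2 and 30494.6 FPKM without it, and 32537.2 FPKM with C1qb and 29763.5 FPKM without it.

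As a count, 2 of 10 members lay near the share of all genes that differed in such splits. With a difference of at least 4-fold in median FPKM + 1 taken as a call, a minimum chosen after the values were seen, 2 of 10 members were higher with Ly6c2, as were 19.6% of the 1431 genes, and none was lower, as were 17.1%. With C1qb, none of the members was higher, as were 17.3%, and 2 of 10 were lower, as were 23.3%. The log2 differences with Ly6c2 were 3.64 for Tmsb10 and 4.30 for Coro1a, and with C1qb -5.03 and -4.95. Both splits use the same 20 cells, and cells of 1 sample give no test.

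Other genes of the actin system ranged from present in every Lyz2-high cell to present in none. Lists of 11 functional groups held 111 genes found in the tables, 101 of them outside the members. Of these 101, 45 were in at least 50% of the Lyz2-high cells, 36 in fewer and 20 in none. Of the 10818 genes present in at least 1 Lyz2-high cell, 13.2% were in at least 50%. That base leaves out genes present in none, which the 101 include. Among the 101, 1 gene was in every Lyz2-high cell, as were 1.32% of the 10818. It was Myl6, a light chain of non-muscle myosin, at 151.0, 2262.7 and 6011.6 FPKM. Present in no cell of the 31 were 15 genes: the muscle actins Acta1 and Actg2, Pfn2, Cap2, Limk1, Wasf1, Cttn, Scin, Avil, Pls1, Pls3, Fscn1, Tagln, Arhgdig and Tpm2. Among these are close relatives of members, such as Pfn2 beside Pfn1 and the plastins Pls1 and Pls3 beside Lcp1.

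In the Arp2/3 complex, the other subunits were present in 2 to 19 of 20 Lyz2-high cells, and Arpc2 in 19. Arpc5 was present in 19 and Arpc1b in 18 of 20 Lyz2-high cells, with medians of 438.3 and 56.0 FPKM, and Arpc4 in 15. The remaining subunits, named here after their values were seen to complete the complex, were Actr3 in 14, Actr2 in 10, Arpc1a in 5, Arpc3 in 4 and Arpc5l in 2. Of the genes that promote nucleation and elongation, Cyfip1 was in 18, Brk1 in 16 and Enah, a filament elongation factor, in 16 cells.

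Filament capping genes were led by Capzb in 18, Capza2 in 17 and Capg in 13 of 20 Lyz2-high cells, and bundling genes by Lsp1 in 18 and Tagln2 and Iqgap1 in 17 each. Tpm3, a tropomyosin, was in 19 and Myl12b in 16 cells. Of the links to the membrane, Tln1 was in 19, Msn in 17 and Fermt3 in 13 cells. Of the monomer-binding genes outside the members, Twf2 and Cap1 were in 5 and Twf1 in 3 cells. Of the turnover genes, Gmfg, Cotl1 and Dstn were in 16 cells each, with medians of 507.7, 83.7 and 21.5 FPKM.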

How the data were processed

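Single cells of the right lung lobes were sorted and captured on a Fluidigm C1 microfluidic chip. Per the labels' protocols, polyadenylated RNA was amplified with a SMARTer kit and made into Nextera XT libraries, which carry no molecular identifiers and do not mark the strand. PCR copies of 1 molecule are therefore counted as several reads, and reads of a gene and of its antisense partner cannot be told apart. CASAVA 1.8, Trimmomatic, RSEM and the GRCm38 build are named per the submitters' processing notes. Their settings, the aligner and the annotation release were not given in the sources used here.

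2 kinds of value were used. The authors deposited RSEM expected counts, which are estimated reads per gene, and FPKM values, which scale fragments to transcript length and library size. The count table had 75 columns, of which 31 matched a sample title and 44 were not used. Depth was 120835 to 4059833 expected counts per library. Symbols and coordinates were taken from GENCODE on GRCm38, and coding sequences were cut from its transcripts.

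The 31 cells form 1 group with no animal named, so the group counts as 1 sample and no test was made. Intervals are exact Clopper-Pearson 95% intervals and cover counting error over cells only. Presence means an FPKM of at least 1 in that cell. Correlations were Spearman's rho of log2(FPKM + 1), except where Pearson's r is named, and are descriptions. The members, lists and minimums were chosen with earlier results of these data known. The genes named are the members, the non-members of 11 actin lists that were in every Lyz2-high cell, that ranked in the top 3 of their list or that were in no cell, the 5 genes most like Actb and most like the mean of the members, and genes that share sequence with a member. A gene named outside that rule is said to be so beside its value, and the results of some genes under the rule are not reported here. Alternatives were other presence minimums, other sets of cells, other scalings and pseudocounts, thinning to equal totals and leaving out 1 cell. Python 3.11.15, numpy 2.4.6, pandas 2.3.3, scipy 1.17.1 and matplotlib 3.10.9 were used.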

Additional observations from a re-analysis of the deposited data

How the results depend on the processing

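Of 55 alternatives to the 7 summary values, 45 stayed within a set margin and 10 moved further. The margin was 1.5 times for a count and the SD between cells for a median over cells. For the median rho it was 0.207, the SD over the 45 member pairs, which is not a spread between cells. A change of direction was not scored. The margin exceeded the value itself for the median rho, 0.207 against 0.13. It also did so for the Tmsb10 share of both thymosins, 11.9 against 9.33%. For both, a fall to 0 would have counted as within the margin. Pseudocounts of 0.1 and 10 keep the order of cells, so they could not move Spearman's rho. Over all 31 cells, 0 members were in every cell, the median cell held 9, 0 pairs were together in at least 90% of cells and the median rho was 0.57. With Lyz2 at FPKM 100 or more, which adds low-coding libraries and makes 25 cells, these values were 1, 9, 2 and 0.47. With presence at FPKM 100 or more the median cell held 9 members. With Lyz2 at FPKM 5000 or more, which leaves 18 cells, 21 pairs were together in at least 90%, since a pair in 16 of 18 cells falls under that share. The median share of the library was 4.18% without cell C7, an alternative chosen after seeing the data, as was the 4-fold minimum for the Ly6c2 and C1qb splits. Thinned to equal totals, Lcp1 was in 16 of 20 Lyz2-high cells. The 20 cells, the lack of molecular identifiers and the single group limit what these values can show. No paired analysis was possible because all cells belong to 1 group and no value comes from a test.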

Other observations

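Cell F11, which had no Lyz2 and lay outside both sets, held all 10 members and had Tmsb4x as its highest gene at 86639.5 FPKM. The members took 8.43% of its summed FPKM, a share that 1 Lyz2-high cell exceeded, C7 at 9.01%, with 85070.8 FPKM of Tmsb4x. Coro1a was low in F11 at 39.5 FPKM, and Actb was at 4578.8 FPKM. Of the pan-myeloid markers in F11, Fcer1g had 2363.8, Ctss 2166.3, Lgals3 681.9, Ptprc 319.2, Tyrobp 202.0 and Itgam 42.8 FPKM. Csf1r had 0.99 FPKM there, and Adgre1 and Cd68 were at 0. C7 had the lowest Lyz2 of the Lyz2-high cells, and across those 20 cells the rank correlation of Tmsb4x with Lyz2 was -0.47. Pfn1 also had -0.47 with Lyz2 and Arpc2 -0.41, while Cfl1 had 0.44, and the remaining members lay from -0.18 to 0.33.

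Low-coding libraries did not carry the same few members. Library D10 had Actb at 1334.1 and Tmsb4x at 1338.6 FPKM, G1 had Actg1 at 2409.9 FPKM and no Actb, D8 had Tmsb10 at 1897.5 FPKM and neither actin, and D12 had neither actin and neither thymosin. These genes and libraries were picked after their values were seen.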
